A study of Mus musculus with 18 samples.

Results

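The lysosomal genes described here are 44 of the 22787 genes in the deposited table: subunits of the vacuolar proton pump, lysosomal glycosidases and other hydrolases, and proteins of the lysosomal membrane, taken by gene symbol from a fixed list that leaves out the cathepsins. All 44 symbols were found, and all 44 passed the filter on low values in every comparison, Atp6v0d2 in GMPs only through the knockout libraries. The vacuolar ATPase (V-ATPase) acidifies the lysosome. Its V1 sector, on the cytosolic side, hydrolyses ATP, and its V0 sector carries protons through the membrane. The hydrolases inside the lysosome work at that acid pH on sugars, lipids, sulfate esters and peptides, and the loss of single enzymes causes lysosomal storage diseases. The kinase complex mTORC1 is switched on at the lysosomal surface, and it keeps TFEB and TFE3, transcription factors of many lysosomal genes, in the cytoplasm.

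RNA of 18 mouse samples was sequenced after SmartSeq2 low-input preparation, in 7 groups. Granulocyte-monocyte progenitors (GMPs), the marrow cells that give rise to neutrophils and monocytes, came as Raptor KO (3 libraries), Tsc2 KO (3), Raptor fl/fl (3) and Tsc2 fl/fl (3). Rptor encodes the defining subunit of mTORC1, and Tsc2 encodes a subunit of the complex that holds mTORC1 inactive. For each GMP library 10000 cells were sorted by a gate that required c-kit and FcγRII/III, excluded Sca-1, CD127 and CD135, and took the low range of Ly6C and CD34. The other 6 libraries were DR-ER-Hoxb8 cells, a progenitor line kept immature by estradiol-dependent Hoxb8. These cells were grown for 3 days in medium with SCF but no estradiol, with rapamycin at 100 nM (an mTORC1 inhibitor), SL0101-01 (an RSK kinase inhibitor, called SL0101 here) at 10 nM or DMSO, with 2 libraries each. The strain, sex and age of the mice, the Cre that removed each floxed allele, the deleted exons and the origin of the line are not given in the sources used here. Whether replicates came from separate animals or cultures is not stated in the labels, so the p-values measure only the spread between these samples, which may be technical.

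Each value is a gene's fragment count, scaled by the authors with a size factor for its library, and is called normalised fragments here. They are not divided by gene length, so levels are compared between samples and not between genes. Depth was 2.31 to 3.30 M fragments per Hoxb8 library and 2.48 to 3.52 M per GMP library. Groups were taken from the sample titles, because a genotype field of the samples titled Tsc2 gives Raptor. Tsc2 had 103, 99.0 and 83.0 normalised fragments in Tsc2 KO libraries, against 269, 235 and 241 in Tsc2 fl/fl libraries. Rptor had 61.6, 58.7 and 69.5 in Raptor KO libraries, against 88.0, 78.6 and 86.8 in Raptor fl/fl libraries, groups that did not overlap, with a log2 fold change of -0.41 ± 0.24 (SE) and an adjusted p of 0.377. Reads from exons that were not deleted cannot test a deletion, so the Rptor values check the labels only in part. The progenitor markers Mpo, Elane, Prtn3 and Kit were present in every GMP library. Tsc2 KO replicate 1 stood apart from the other Tsc2 KO libraries: the summed level of the 9 GMP granule and progenitor genes was 40472 there, against 8661 and 12970 in replicates 2 and 3. Expression differences below are log2 fold changes of the value plus 1 from limma, with standard errors, and p-values are adjusted over all genes tested (Benjamini-Hochberg), at a threshold of 0.05.

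The E-box CACGTG is the core of the CLEAR element through which TFEB and TFE3 bind lysosomal promoters. Promoter windows of 300 bases, with 250 bases before and 50 bases after an annotated start (RefSeq, build GRCm38.p6), were found for 36 of the 44 genes. CACGTG reads the same on both strands. It occurred in the windows of 12 of 36 genes (33.3%), and in 8.09% of all 27025 genes with a window. The longer TCACGTGA, which contains CACGTG, occurred in 6 of 36 genes (16.7%) and in 1.12% of all genes. The 12 genes were Arsa, Atp6v0b, Atp6v0d1, Atp6v0e, Atp6v1a, Cln3, Gaa, Gla, Glb1, Lamp1, Mcoln1 and Naglu. Lamp1 held 4 copies, and Atp6v0b, Cln3, Gla and Mcoln1 held 2 each.

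Stretches of 100 bases are printed here for genes whose levels are described below, with each E-box in capitals, 5′ to 3′ on the gene's own strand. They run up to the base before the annotated start, except for Cln3 (bases -160 to -61) and Atp6v1a (bases -142 to -43). Cln3, a membrane protein lost in a form of Batten disease, lies at chr7:126583297-126583396 on the minus strand. Atp6v1a, the catalytic V1 subunit, lies at chr16:44139302-44139401 on the minus strand. Atp6v0b, a proteolipid of the V0 ring, lies at chr4:117887330-117887429 on the minus strand. Lamp1, a main glycoprotein of the lysosomal membrane, lies at chr8:13159061-13159160 on the plus strand. Mcoln1, a calcium channel of the lysosome, lies at chr8:3500419-3500518 on the plus strand. Glb1, the lysosomal beta-galactosidase, lies at chr9:114400978-114401077 on the plus strand.
Cln3: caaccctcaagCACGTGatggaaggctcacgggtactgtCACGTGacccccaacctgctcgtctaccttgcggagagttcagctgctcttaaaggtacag
Atp6v1a: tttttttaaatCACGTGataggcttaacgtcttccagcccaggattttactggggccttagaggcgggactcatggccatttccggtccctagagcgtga
Atp6v0b: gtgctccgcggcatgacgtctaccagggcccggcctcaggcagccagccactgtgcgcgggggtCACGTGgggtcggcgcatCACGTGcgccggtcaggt
Lamp1: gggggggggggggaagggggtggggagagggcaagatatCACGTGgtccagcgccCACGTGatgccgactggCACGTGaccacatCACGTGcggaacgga
Mcoln1: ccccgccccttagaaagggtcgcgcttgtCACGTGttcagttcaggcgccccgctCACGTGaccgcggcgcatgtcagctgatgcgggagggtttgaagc
Glb1: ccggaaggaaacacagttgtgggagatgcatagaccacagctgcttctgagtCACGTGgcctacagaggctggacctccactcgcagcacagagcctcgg

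A match describes the letters of the window and shows no binding. Among genes with a window, CACGTG was in 3 of the 10 that fell with rapamycin, 2 of the 8 that fell with SL0101, 1 of the 6 that rose in Tsc2 KO GMPs and 1 of the 3 that fell there.

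**Figure D1:**
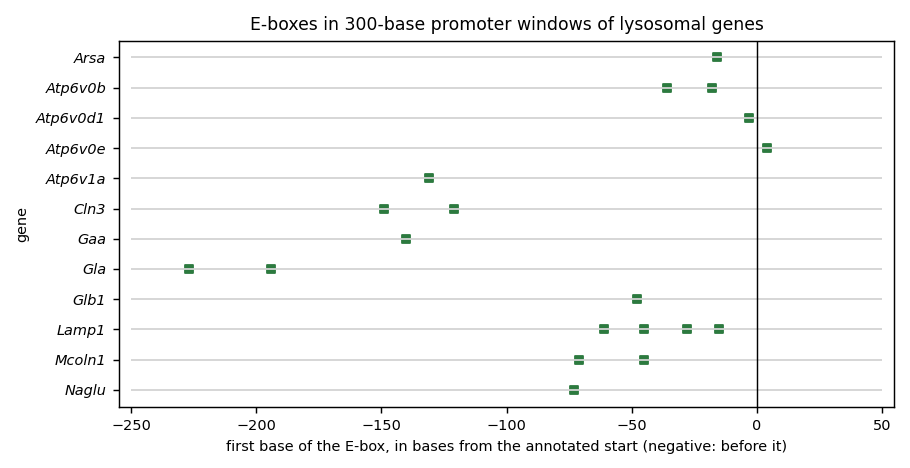
Positions of CACGTG in the 300-base promoter windows of the 12 lysosomal genes that hold it; the horizontal axis gives the first base of each E-box relative to the annotated start. Lamp1 has 4 squares, all within 61 bases before the start, and Atp6v0e has its only square after the start.

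Across the 7 groups the lysosomal genes were highest in DMSO-treated Hoxb8 cells and lowest in GMPs. Their summed level was 25362 and 24674 normalised fragments in rapamycin and 26789 and 26972 in SL0101, against 31297 and 31336 in DMSO, so that both DMSO libraries lay above all 4 inhibitor libraries. In Raptor KO GMPs the sum was 14840, 14615 and 14855, against 14180, 13778 and 13866 in Raptor fl/fl GMPs, with every knockout library above every control. In Tsc2 KO GMPs it was 15262, 12066 and 13831, against 12218, 10258 and 14019 in Tsc2 fl/fl GMPs, where the groups overlapped. The group with the highest mean was DMSO for 29 genes, SL0101 for 7, rapamycin for 5, Raptor KO for 2 and Tsc2 KO for 1. For 20 of the 44 genes every Hoxb8 library lay above every GMP library, which held for 11.8% of all genes tested. In bulk RNA, fewer cells of a type and less RNA per cell cannot be told apart.

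The mouse lines differed in 3 of the genes whatever the genotype, a comparison chosen after the values were seen. In the Tsc2 line 1 was higher and 2 were lower. These few genes are not far from the all-gene shares (1.88% higher and 2.11% lower) and show nothing particular to lysosomal genes. Lamp1 had 475 to 1038 normalised fragments in the 6 Tsc2-line libraries (KO and fl/fl), against 163 to 333 in the 6 Raptor-line libraries, and 1.88% of all genes were higher without overlap. Npc2 had 532 to 818 in the Tsc2 line, against 840.0 to 1012 in the Raptor line. Ppt1 had 168 to 301 in the Tsc2 line, against 330.2 to 461 in the Raptor line, and 2.11% of all genes were lower without overlap. Line and sample handling cannot be told apart, and knockouts are therefore compared with the controls of their own line.

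**Figure D2:**
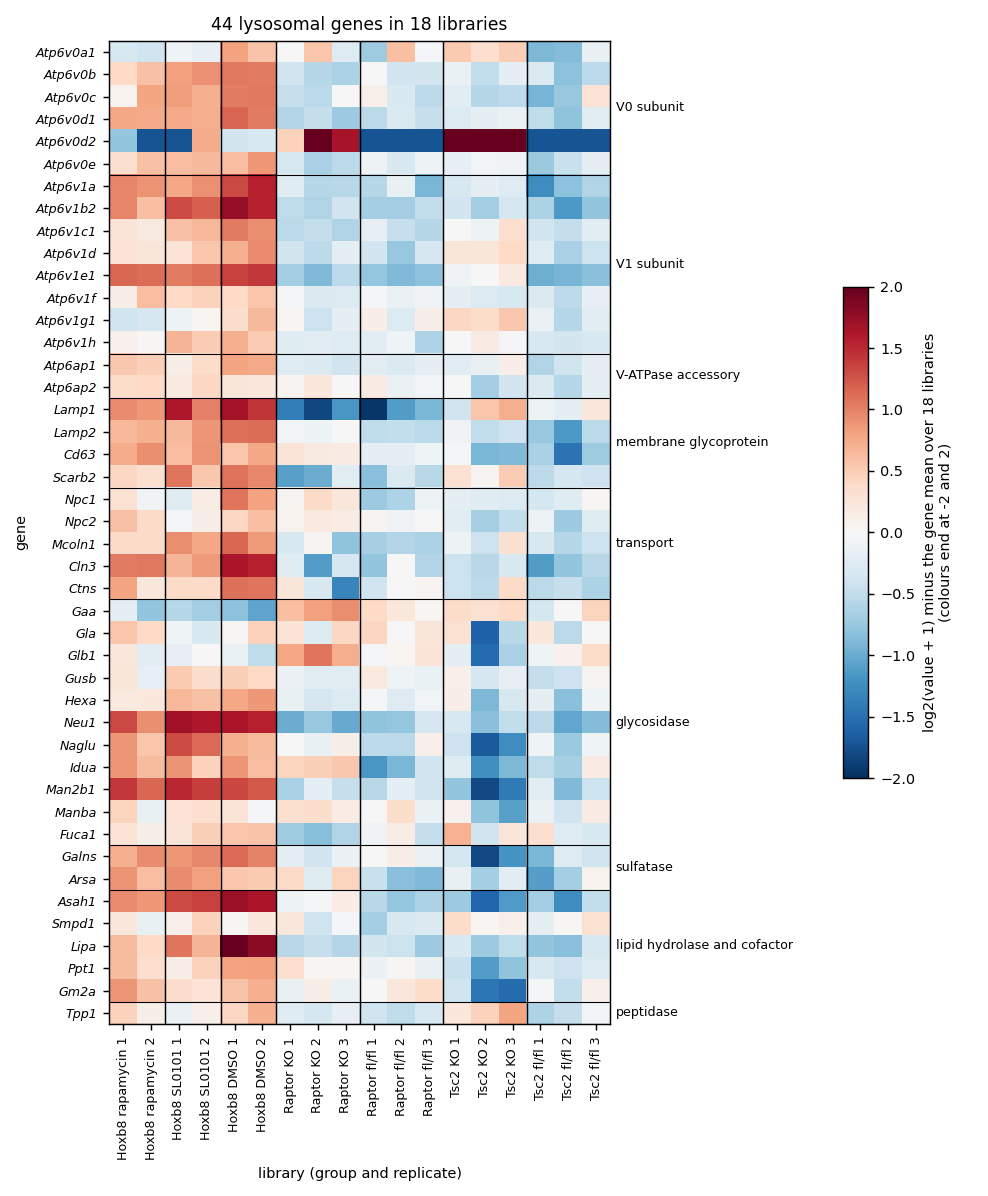
Log2 of the value plus 1 of the 44 lysosomal genes, less each gene's mean over the 18 libraries; rows are genes grouped by role, columns are libraries grouped by condition, and colours end at -2 and 2. The Hoxb8 columns are mostly red and the GMP columns mostly blue, and Atp6v0d2 is red in the knockout GMPs.

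Raptor KO GMPs were compared with Raptor fl/fl GMPs to see what loss of the mTORC1 subunit does to lysosomal transcripts. Of the 44 genes, 2 rose (1.53% of all 13237 genes tested rose) and 0 fell (2.42% of all fell), with 10 at an unadjusted p under 0.05 (19% of all). The risers were Atp6v0d2, an alternative V0 d subunit best known from osteoclasts and macrophages, and Idua, the alpha-L-iduronidase that trims heparan and dermatan sulfate. The median log2 fold change was 0.08 over the 44 genes and 0.03 over all genes.

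Atp6v0d2 had 3.54, 26.0 and 9.40 normalised fragments in Raptor KO libraries and was at 0 in all 3 Raptor fl/fl libraries. These Raptor KO values rest on 5, 35 and 10 fragments. Against a floor of 3 fragments per fl/fl library the Raptor KO mean was at least 5.62-fold higher. Atp6v0d2 met the filter on low values only through the knockout libraries, so a gene tested here had to differ. Its test (fitted log2 fold change 3.44 ± 0.63, adjusted p = 0.00458) is therefore given as a description, and without it 1 of 43 genes rose. Atp6v0d2 was detected in all 3 knockout libraries and in none of the controls. Idua had 92.0, 94.4 and 97.7 in Raptor KO libraries, against 29.6, 35.0 and 51.1 in Raptor fl/fl libraries (log2 fold change 1.31 ± 0.31, adjusted p = 0.022). The 3 Idua values of the knockout lay close together and well above all 3 controls. Idua lost its call when any 1 Raptor library other than fl/fl replicate 3 was left out.

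Some other hydrolases of the Raptor KO GMPs stood above their controls without passing the test. The hydrolases did not rise as a class. Of the 11 glycosidases 5 had a log2 fold change above 0, with a median of -0.05. So did 1 of 2 sulfatases and 3 of 5 lipid hydrolases and cofactors. In 11 of the 44 genes, Atp6v0d2 included, all 3 Raptor KO libraries lay above all 3 fl/fl libraries (13.3% of all genes). In 2, Atp6v0e and Fuca1, they lay below them (13.1% of all genes). Glb1, the beta-galactosidase, had 383, 469.7 and 371 in Raptor KO libraries, against 217, 229 and 266 in Raptor fl/fl libraries (0.78 ± 0.25, adjusted p = 0.0975). Asah1, the acid ceramidase, had 316, 331 and 374, against 229, 197 and 217 in Raptor fl/fl (0.66 ± 0.21, adjusted p = 0.0789). Gaa, which degrades lysosomal glycogen, had 440.1, 512 and 555, against 383, 336 and 298 in Raptor fl/fl (0.57 ± 0.17, adjusted p = 0.0656). Arsa, the arylsulfatase that acts on sulfatide, had a log2 fold change of 0.91 ± 0.28 (adjusted p = 0.0765), and Lamp2, a membrane glycoprotein needed for autophagosome fusion and chaperone-mediated autophagy, one of 0.47 ± 0.14 (adjusted p = 0.0766). With the Raptor libraries fitted alone 9 of the 44 genes passed (8 higher, 1 lower), and 1249 of all genes did, against 522. In the V1 sector 0 of 8 subunits passed, with a median log2 fold change of 0.08. In the V0 sector 1 of 6 passed, Atp6v0d2, whose test is only a description, and the median was -0.13. The summed level of the V0 genes was 1825, 1734 and 1876 in Raptor KO libraries, against 2244, 2005 and 1906 in Raptor fl/fl libraries, without overlap.

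Markers of other cells differed between the Raptor groups. The summed level of 17 macrophage genes was 601 to 1333 in Raptor KO, against 335 to 374 in Raptor fl/fl. Of 15 tested genes 2 (Gpnmb and Lgals3) were higher and 0 lower, and 10 had a log2 fold change above 0. Gpnmb made up much of the sum, with 164, 580 and 408 in Raptor KO, against 0, 1.56 and 4.06 in Raptor fl/fl. Cd163 and Vcam1 were lower in every Raptor KO library than in every control, without passing. Timd4 was at 0 in every Raptor KO library. The eosinophil genes Prg2, Epx and Prg3 summed to 5586 to 7323 in Raptor KO, against 1812 to 3956 in Raptor fl/fl, with 0 of 3 passing. The basophil and mast cell genes summed to 9257 to 11332 in Raptor KO, against 3519 to 7380 in Raptor fl/fl, with 0 of 6 passing. Malat1 and Neat1, nuclear RNAs read here as a sign of RNA quality, summed to 1835 to 2600 in Raptor KO, against 827 to 1327 in Raptor fl/fl, and both rose. The 9 erythroid genes summed to 932 to 1392 in Raptor KO, against 1839 to 2181 in Raptor fl/fl, with 4 of 9 lower, and the 5 megakaryocyte genes to 367 to 412, against 970 to 1111 in Raptor fl/fl, with 2 of 5 lower. The 10 neutrophil maturation genes summed to 380 to 492 in Raptor KO, against 669 to 1915 in Raptor fl/fl, with 2 of 10 lower. Summed over the 7 monocyte genes, Raptor KO had 774 to 827, against 850 to 944 in Raptor fl/fl, with 0 of 7 passing. The 7 B lymphoid genes summed to 103 to 148 in Raptor KO, against 708 to 1036 in Raptor fl/fl, with 6 of 7 lower. The part of these differences in the lysosomal results was not tested.

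Tsc2 KO GMPs, in which the brake on mTORC1 is removed, were compared with Tsc2 fl/fl GMPs. Proton pump genes rose, while 2 glycosidase genes and 1 lipid cofactor gene fell. The falls were no more frequent than over all genes tested. Of the 44 genes 8 rose (5.26% of all genes tested) and 3 fell (7.12%), with 19 at an unadjusted p under 0.05 (27.2% of all) and a median log2 fold change of 0.27 against -0.02 over all genes. Among the 8 V1 subunits 4 rose and 0 fell (median 0.54), and among the 6 V0 subunits 2 rose and 0 fell (median 0.33). Atp6v0d2, whose test is only a description as in Raptor KO, is counted among the 8 risers and the V0 risers. The other V0 riser was Atp6v0a1. Among the 11 glycosidases 0 rose and 2 fell (median -0.45). In 12 genes, Atp6v0d2 included, every Tsc2 KO library lay above every fl/fl library (14.6% of all genes), and in 2 below (13.3%).

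Atp6v0d2, again, had 41.8, 18.6 and 28.9 normalised fragments in Tsc2 KO libraries (63, 27 and 39 fragments) and 0 in all 3 Tsc2 fl/fl libraries. Against a floor of 3 fragments per fl/fl library the Tsc2 KO mean was at least 11.21-fold higher. For the same reason as in Raptor KO its test (4.87 ± 0.63, adjusted p = 0.000141) is a description, and without it 7 of 43 genes rose. With Atp6v0d2 set to its lower bound, the median over the 44 genes was still 0.272. Its paralog Atp6v0d1, the widely expressed d subunit, had 261, 276 and 290.4 in Tsc2 KO libraries, against 223, 180.2 and 271 in Tsc2 fl/fl libraries (0.31 ± 0.16, adjusted p = 0.214). Atp6v0a1, the a1 subunit through which protons pass, had 179, 157 and 174 in Tsc2 KO libraries, against 65.9, 67.7 and 112 in Tsc2 fl/fl libraries (1.09 ± 0.30, adjusted p = 0.0236). No Tsc2 KO library overlapped the controls in either Atp6v0d2 or Atp6v0a1.

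In the V1 sector, Atp6v1e1, which builds the peripheral stalk, had 559.5, 586 and 676 in Tsc2 KO libraries, against 299, 310.5 and 329 in Tsc2 fl/fl libraries (0.95 ± 0.13, adjusted p = 0.000233). Atp6v1g1, its stalk partner, had 424, 409 and 463, against 290.4, 215 and 274 in Tsc2 fl/fl (0.74 ± 0.16, adjusted p = 0.00654). All Tsc2 KO libraries lay above all controls for both stalk subunits. Atp6v1d, part of the central rotor, had 265, 264 and 295 in Tsc2 KO, against 186, 142 and 166 in Tsc2 fl/fl (0.74 ± 0.17, adjusted p = 0.00809). Atp6v1a, the catalytic subunit, had 269.8, 299 and 282 in Tsc2 KO, against 142, 190.3 and 222 in Tsc2 fl/fl (0.64 ± 0.19, adjusted p = 0.0371). The remaining V1 genes Atp6v1b2, Atp6v1c1, Atp6v1f and Atp6v1h did not pass, at log2 fold changes between 0.07 and 0.44.

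Tpp1, the tripeptidyl peptidase lost in a childhood form of neuronal ceroid lipofuscinosis, had 259, 306 and 387 in Tsc2 KO libraries, against 146, 159 and 214 in Tsc2 fl/fl libraries (0.87 ± 0.18, adjusted p = 0.00409). Lamp2 had 895, 666 and 703 in Tsc2 KO libraries, against 557, 422 and 646 in Tsc2 fl/fl libraries (0.49 ± 0.14, adjusted p = 0.0333). The groups did not overlap in either gene, but for Lamp2 the lowest Tsc2 KO library was close to the highest control. Lamp1 had 475, 926 and 1038 in Tsc2 KO, against 585, 552 and 735 in Tsc2 fl/fl, groups that overlapped (0.32 ± 0.32, adjusted p = 0.595).

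The 3 genes that fell in Tsc2 KO GMPs act on glycolipids and glycans. Their count is near the share of all genes tested that fell (7.12%), so it shows nothing particular to lysosomal genes. Glb1 had 196, 75.6 and 142 in Tsc2 KO libraries, against 211, 236 and 288 in Tsc2 fl/fl libraries (-0.92 ± 0.25, adjusted p = 0.0269). Gm2a, the activator that presents GM2 ganglioside to hexosaminidase A, had 557, 269 and 251, against 714, 521 and 787 in Tsc2 fl/fl (-0.98 ± 0.26, adjusted p = 0.0258). Man2b1, the lysosomal alpha-mannosidase, had 389.8, 193 and 253, against 577, 368 and 505 in Tsc2 fl/fl (-0.83 ± 0.22, adjusted p = 0.0251). For Gm2a and Man2b1, Tsc2 KO replicate 1 lay within the range of the controls and the other 2 Tsc2 KO libraries lay below it. Without Tsc2 KO replicate 1, 8 genes fell and 7 rose, and 2498 of all genes passed, against 1638 with every library. None of the 44 genes fell without fl/fl replicate 1 (5 rose) or fl/fl replicate 3 (8 rose). The same held without Tsc2 KO replicate 2 (6 rose) or Tsc2 KO replicate 3 (4 rose). In these fits without a fall 601 to 860 of all genes passed, so the counts moved over all genes as well. Atp6v1e1, Atp6v1g1 and Tpp1 rose whichever library was left out.

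**Figure D3:**
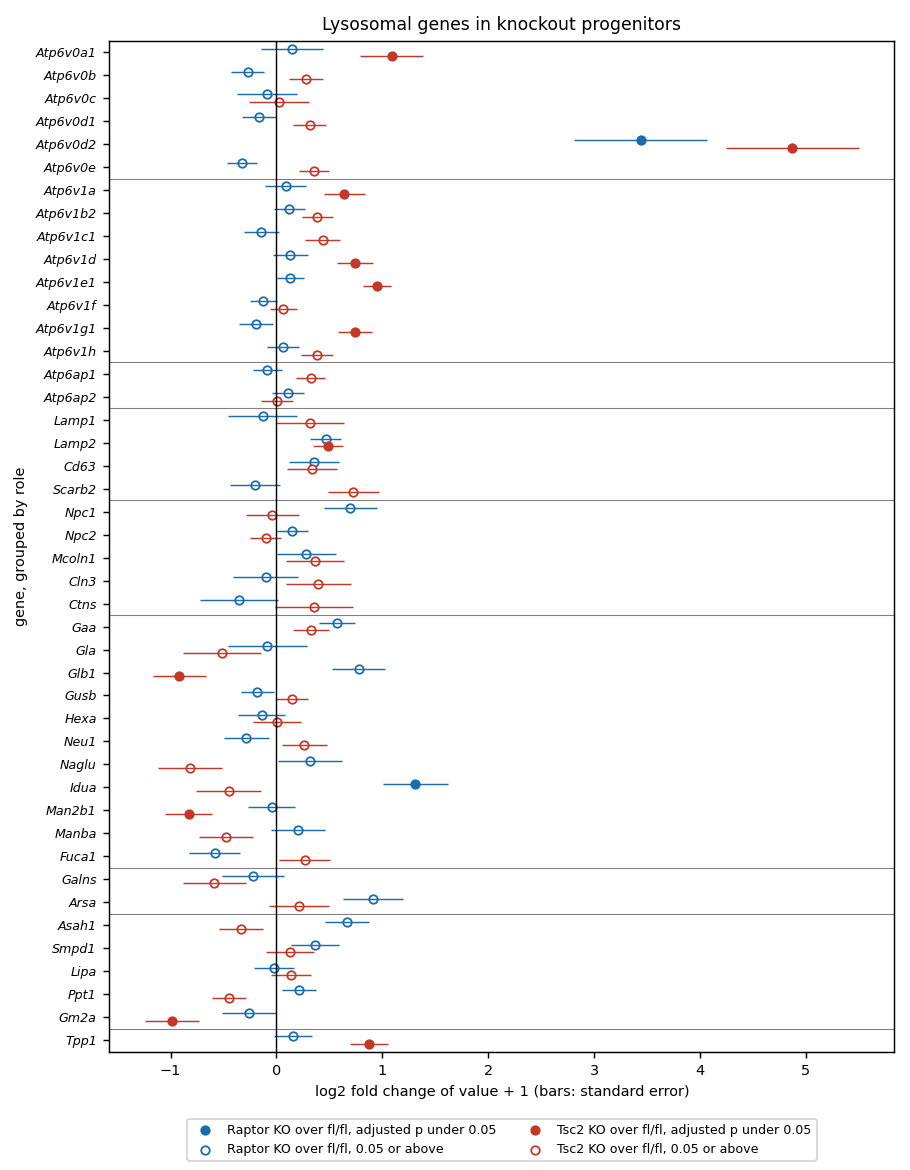
Log2 fold changes of the 44 genes in Raptor KO over Raptor fl/fl (blue) and Tsc2 KO over Tsc2 fl/fl (red) GMPs, with standard errors; filled points have an adjusted p under 0.05. Red points lie to the right of 0 for all V1 subunits, and both colours lie far to the right for Atp6v0d2.

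Marker genes also differed between the Tsc2 groups. The 17 macrophage genes summed to 786 to 1026 in Tsc2 KO, against 103 to 312 in Tsc2 fl/fl. Of 15 tested, 7 rose (Gpnmb, C1qb, C1qc, Lgals3, Mertk, Mrc1 and Trem2) and 0 fell, while Marco was at 0 in every Tsc2 library. Mertk was at 0 in every fl/fl GMP library and met the filter only through knockout libraries, so its rise is only a description. The 9 GMP granule and progenitor genes summed to 8661 to 40472 in Tsc2 KO, against 36884 to 82782 in Tsc2 fl/fl, with 4 of 9 lower (Cebpe, Gfi1, Ms4a3 and Prtn3). The 9 erythroid genes summed to 5214 to 10983 in Tsc2 KO, against 1498 to 4670 in Tsc2 fl/fl, with 2 of 9 higher. The 6 basophil and mast cell genes summed to 3329 to 8180 in Tsc2 KO, against 1432 to 2671 in Tsc2 fl/fl, with 1 of 6 higher, and the 5 megakaryocyte genes to 145 to 175, against 313 to 635 in Tsc2 fl/fl, with 2 of 5 lower. Malat1 and Neat1 summed to 472 to 893 in Tsc2 KO, against 926 to 1033 in Tsc2 fl/fl, without overlap, and 0 of 2 passed. The 7 B lymphoid genes summed to 17.8 to 65.6 in Tsc2 KO, against 316 to 518 in Tsc2 fl/fl, with 6 of 7 lower. Summed over the 7 monocyte genes, Tsc2 KO had 249 to 1417, against 380 to 1746 in Tsc2 fl/fl, with 1 of 7 lower. Neutrophil maturation genes summed to 1091 to 3471 in Tsc2 KO, against 415 to 1546 in Tsc2 fl/fl, with 0 of 10 passing. Eosinophil genes summed to 819 to 2325 in Tsc2 KO, against 646 to 2243 in Tsc2 fl/fl, with 0 of 3 passing. The part of these markers in the lysosomal results was not tested. Replicate 2 of both Tsc2 groups had Ddx3y, a Y-linked gene (113 in Tsc2 KO and 130.3 in Tsc2 fl/fl), and almost no Xist. Without both libraries 7 of the 44 genes passed (5 higher, 2 lower), and 1275 of all genes did, against 1638 with every library.

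The 2 knockouts differed in their effect on 6 of the 44 genes, by a test of the Raptor effect minus the Tsc2 effect. The difference was positive in 3 genes (5.99% of all genes) and negative in 3 (6.44%), with 18 at an unadjusted p under 0.05 (27.4% of all) and a median of -0.17 against 0.08 over all genes. Both counts are near the all-gene shares. Idua had 57.0, 28.2 and 35.6 in Tsc2 KO libraries, against 46.8, 42.3 and 75.2 in Tsc2 fl/fl libraries, and its effects differed by 1.76 ± 0.43 (adjusted p = 0.0137). Glb1, higher in all Raptor KO libraries and lower in all Tsc2 KO libraries than in their controls, differed by 1.69 ± 0.36 (adjusted p = 0.00786). Asah1 had 204, 112 and 154 in Tsc2 KO, against 209, 142 and 239.8 in Tsc2 fl/fl, and differed by 1.00 ± 0.29 (adjusted p = 0.0332). In these 3 hydrolases the Raptor KO values lay above all their controls and the Tsc2 KO values did not.

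The negative differences were all in pump subunits. Atp6v1g1 had 328, 236 and 277 in Raptor KO libraries, against 351, 265 and 347 in Raptor fl/fl libraries, and its effects differed by -0.94 ± 0.23 (adjusted p = 0.0133). Atp6v1e1 had 369, 320.3 and 409.7 in Raptor KO, against 346, 320.0 and 333 in Raptor fl/fl, and differed by -0.82 ± 0.18 (adjusted p = 0.0086). Both are the stalk subunits that rose in Tsc2 KO GMPs. Atp6v0e, a small V0 subunit, had 546, 434 and 476 in Raptor KO, against 632, 553 and 633 in Raptor fl/fl. In Tsc2 KO it had 605, 659.5 and 647, against 409, 503 and 604 in Tsc2 fl/fl, and the effects differed by -0.67 ± 0.20 (adjusted p = 0.0335). Atp6v0d2 was not shown to differ between the knockouts (-1.43 ± 0.89, adjusted p = 0.315). It met the filter only through knockout libraries, so this test too is only a description. Without Tsc2 KO replicate 1, 12 of the 44 genes differed, and 2519 of all genes did, against 1646 with every library. Atp6v1e1, Atp6v1g1, Glb1 and Idua differed whichever of the 12 libraries was left out. Glb1 shares exon sequence on the same strand with Tmppe and held fractional fragments, so its counts may be split with that gene.

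**Figure D4:**
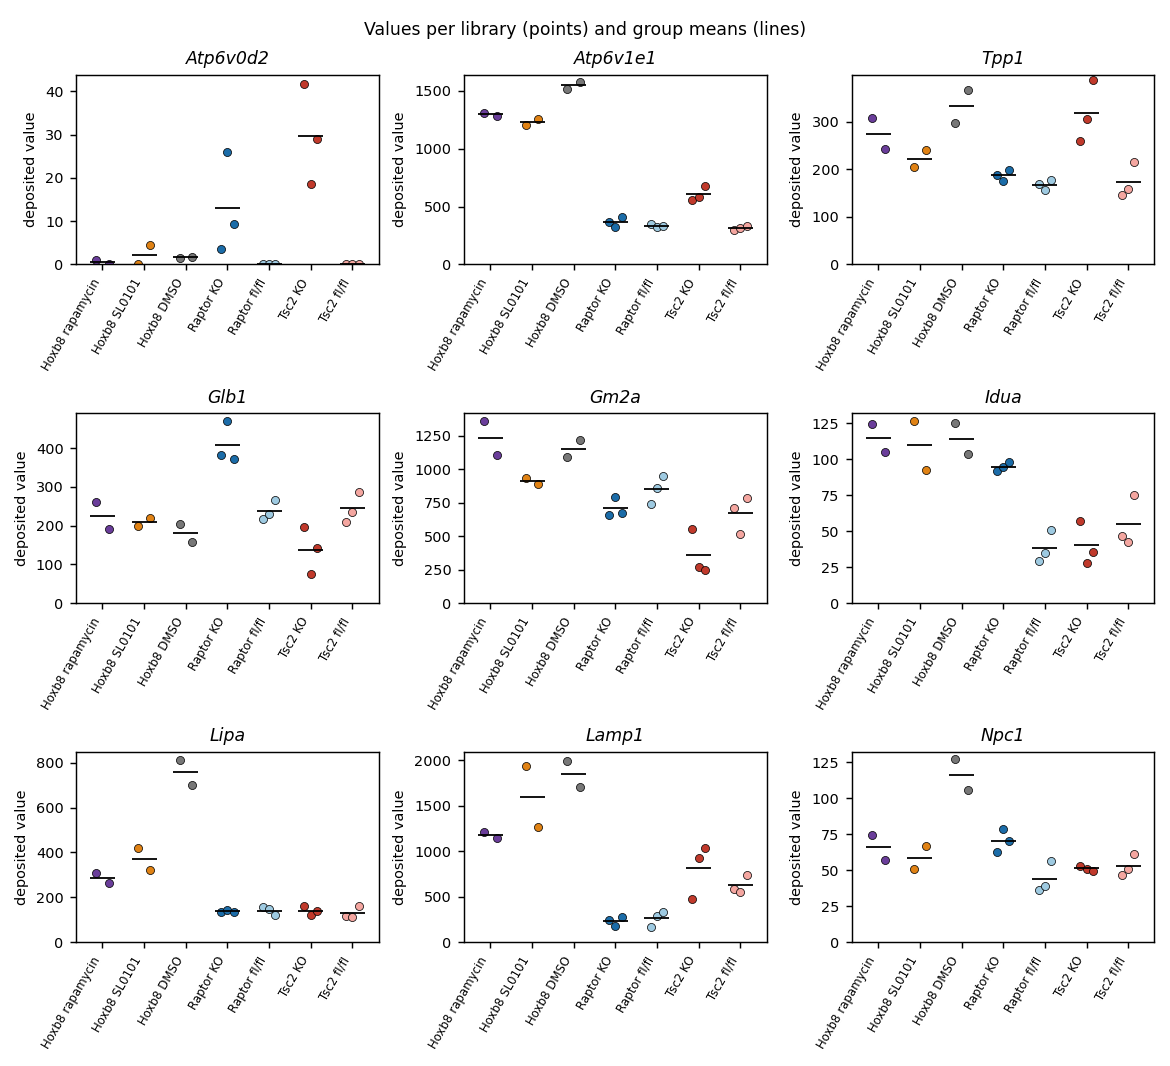
Normalised fragments per library (points) and group means (lines) for 9 lysosomal genes in the 7 groups, with the vertical axis starting at 0 in each panel. Glb1 is highest in Raptor KO, Atp6v0d2 is at 0 in both fl/fl groups, and Lipa is highest in DMSO-treated Hoxb8 cells.

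Hoxb8 cells treated with rapamycin during differentiation had lower levels of many lysosomal genes than cells in DMSO. Of the 44 genes 0 rose (5.40% of all 11804 genes tested) and 16 fell (6.35% of all), with 24 at an unadjusted p under 0.05 (24.4% of all) and a median log2 fold change of -0.39 against -0.01 over all genes. In 29 genes both rapamycin libraries lay below both DMSO libraries (27% of all genes) and in 3 above them (25.3%). By role, 6 of 8 V1 subunits, 3 of 6 V0 subunits, 3 of 4 membrane glycoproteins and 2 of 5 lipid hydrolases and cofactors fell. Of the 11 glycosidases 1 fell, with a median of 0.01.

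Lipa, the acid lipase that frees cholesterol from its esters, had 309 and 264 normalised fragments in rapamycin, against 811 and 701 in DMSO (-1.40 ± 0.16, adjusted p = 3.75e-06). Asah1, the acid ceramidase, had 652 and 620.4 in rapamycin, against 1128 and 1052 in DMSO (-0.78 ± 0.14, adjusted p = 0.000492). Npc1, which exports cholesterol from the lysosome, had 74.2 and 57.1 in rapamycin, against 127 and 105 in DMSO (-0.82 ± 0.25, adjusted p = 0.0311). All 3 lipid-handling genes were lower in both rapamycin libraries. Hexa, the alpha chain of hexosaminidase A, had 744 and 757 in rapamycin, against 1112 and 1182 in DMSO (-0.61 ± 0.14, adjusted p = 0.00418).

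In the V0 sector, Atp6v0a1 had 99.0 and 94.1 in rapamycin, against 218 and 185 in DMSO (-1.05 ± 0.19, adjusted p = 0.000701). Atp6v0c, the proteolipid of the rotating ring, had 829 and 1369 in rapamycin, against 1617 and 1639.6 in DMSO (-0.61 ± 0.17, adjusted p = 0.0222). The rapamycin libraries were far apart for Atp6v0c, and its fractional fragments show that reads were shared with other loci. Its pseudogene Atp6v0c-ps2 had 1991 and 1223 in rapamycin, against 1066 and 1441 in DMSO. Gene and pseudogene together had 2820.0 and 2591 in rapamycin, against 2683 and 3081 in DMSO, which overlap, so the Atp6v0c call, counted among the V0 subunits, is uncertain. Atp6v0b fell as well (-0.55 ± 0.14, adjusted p = 0.0109).

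In the V1 sector, Atp6v1g1 had 242 and 252 in rapamycin, against 408 and 499.6 in DMSO (-0.87 ± 0.16, adjusted p = 0.000684). Atp6v1b2, the B subunit at the ATP-binding interface, had 1295 and 993 in rapamycin, against 2196 and 1915 in DMSO (-0.85 ± 0.15, adjusted p = 0.000377). Atp6v1c1, which joins the stalks to V0, had 292 and 279 in rapamycin, against 504 and 469.7 in DMSO (-0.77 ± 0.15, adjusted p = 0.00118). None of these V1 subunits overlapped between rapamycin and DMSO. Atp6v1d had 272 and 265 in rapamycin, against 365 and 432 in DMSO (-0.56 ± 0.16, adjusted p = 0.0249). Atp6v1h and Atp6v1a also fell, by 0.55 and 0.50 on the log2 scale. Atp6v1e1 and Atp6v1f did not pass, at -0.25 and -0.10.

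Among membrane glycoproteins, Scarb2, the receptor that carries beta-glucocerebrosidase to lysosomes, had 159 and 150.1 in rapamycin, against 254 and 234 in DMSO (-0.66 ± 0.19, adjusted p = 0.0232). Lamp1 had 1207 and 1148 in rapamycin, against 1994 and 1701 in DMSO (-0.65 ± 0.17, adjusted p = 0.0114). Both were lower in each rapamycin library than in each DMSO library. Lamp2 fell by 0.43 on the log2 scale, and Cd63, a tetraspanin of late endosomes, did not pass (0.18 ± 0.14).

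With 2 libraries a group, the count depended on the DMSO libraries and on how limma pooled the variance. Over all genes, too, fewer passed when either DMSO library was left out, for rapamycin and for SL0101. Without DMSO replicate 1, 6 genes fell, without DMSO replicate 2, 5 fell, and without rapamycin replicate 2, 9 fell and 1, Gaa, rose. Asah1, Atp6v0a1, Atp6v1b2, Atp6v1c1 and Lipa fell whichever library was left out. When the variance prior did not follow expression level, 0 of the 44 genes passed (15 at an unadjusted p under 0.05), and 188 of all genes did.

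SL0101-treated Hoxb8 cells also had lower levels of lysosomal genes than DMSO-treated cells, with most calls in lipid, transport and pump genes. Of the 44 genes 0 rose (5.09% of all genes tested) and 10 fell (5.79%), with 20 at an unadjusted p under 0.05 (23.9% of all) and a median log2 fold change of -0.23 against -0.02 over all genes. In 25 genes both SL0101 libraries lay below both DMSO libraries (28.2% of all genes) and in 5 above (26.6%). Of the 5 transport genes 3 fell, of the 5 lipid hydrolases and cofactors 2, of the 8 V1 subunits 2, and of the 11 glycosidases 0.

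Lipa had 419.8 and 321 in SL0101, against 811 and 701 in DMSO (-1.04 ± 0.16, adjusted p = 0.000212). Ppt1, the palmitoyl thioesterase that removes fatty acids from proteins, had 401 and 500.1 in SL0101, against 635 and 646 in DMSO (-0.52 ± 0.16, adjusted p = 0.0357). For both, each SL0101 library lay below each DMSO library. Npc1 had 50.7 and 66.7 in SL0101, against 127 and 105 in DMSO (-0.98 ± 0.25, adjusted p = 0.0113). Npc2, the soluble protein that hands cholesterol to NPC1, had 857 and 959 in SL0101, against 1179 and 1331 in DMSO (-0.47 ± 0.14, adjusted p = 0.0372). The Niemann-Pick C partners were thus both lower. Cln3 had 105 and 119 in SL0101, against 205 and 194 in DMSO (-0.83 ± 0.18, adjusted p = 0.00516).

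Of the pump genes, Atp6v0a1 had 116 and 111 in SL0101, against 218 and 185 in DMSO (-0.82 ± 0.19, adjusted p = 0.00754). Atp6v1a had 579 and 639 in SL0101, against 849 and 992 in DMSO (-0.59 ± 0.14, adjusted p = 0.00945). Atp6v1g1 had 296 and 328 in SL0101, against 408 and 499.6 in DMSO (-0.53 ± 0.16, adjusted p = 0.0338). These subunits come from both sectors, and none overlapped between SL0101 and DMSO. Atp6ap1, an accessory protein needed for pump assembly, had 500.2 and 599 in SL0101, against 804 and 782 in DMSO (-0.53 ± 0.14, adjusted p = 0.0198). Tpp1 had 204 and 240.2 in SL0101, against 298 and 366 in DMSO (-0.58 ± 0.17, adjusted p = 0.0357). Without DMSO replicate 1, 2 of the 44 genes passed, without DMSO replicate 2, 1, without SL0101 replicate 1, 1, and without SL0101 replicate 2, 6. Over all genes tested, too, fewer passed in each of these fits than with every library. Lipa passed in each of them. When the variance prior did not follow expression level 0 passed (11 at an unadjusted p under 0.05), and 97 of all genes did.

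Both inhibitors were set against the same 2 DMSO libraries, so their calls are not independent. Called with both were 5 genes (Atp6v0a1, Atp6v1a, Atp6v1g1, Lipa and Npc1), which are 5 of the 16 called with rapamycin and 5 of the 10 called with SL0101. The share of all genes called with both was not counted, so this overlap is not read as particular to lysosomal genes. The DMSO libraries lay above all 4 inhibitor libraries in 21 of the 44 genes (14.5% of all genes) and below all 4 in 2 (12.9%).

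**Figure D5:**
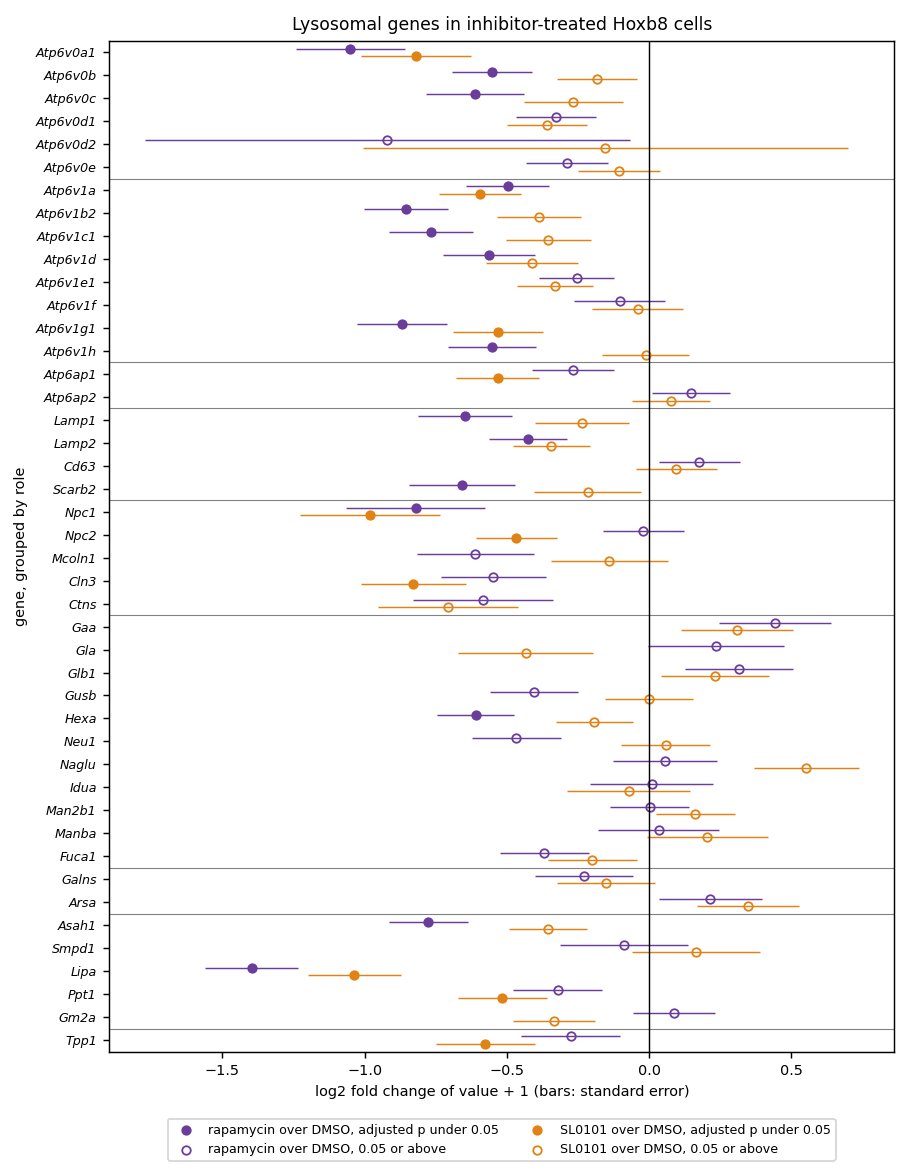
Log2 fold changes of the 44 genes in rapamycin over DMSO (purple) and SL0101 over DMSO (orange) in Hoxb8 cells, with standard errors; filled points have an adjusted p under 0.05. All filled points lie to the left of 0, with Lipa farthest left in both colours.

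Rapamycin and SL0101 were then compared directly, at the doses given above, which differ. Of the 44 genes 0 were higher in rapamycin (4.43% of all genes tested) and 2 lower (4.44%), with 17 at an unadjusted p under 0.05 (23.6% of all). Atp6v1h, a regulatory V1 subunit, had 279.5 and 269.9 in rapamycin, against 422 and 378 in SL0101 (-0.54 ± 0.15, adjusted p = 0.0314). Neu1, the lysosomal sialidase, had 414 and 316 in rapamycin, against 532 and 510.0 in SL0101 (-0.52 ± 0.16, adjusted p = 0.0393). Rapamycin lay below SL0101 in both genes. Both were at the edge of the threshold: with limma fitted to the rapamycin and SL0101 libraries alone 0 passed (15 at an unadjusted p under 0.05), and without SL0101 replicate 1 also 0 (9 at an unadjusted p under 0.05). Without SL0101 replicate 2, 1 passed, Lamp1. The pump and lipid genes lower in both inhibitors were not shown to differ between them, Lipa at -0.36 ± 0.16 (adjusted p = 0.178) and Atp6v0a1 at -0.23 ± 0.19 (adjusted p = 0.509).

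Marker genes differed between the Hoxb8 groups as well. The 17 macrophage genes summed to 1066 to 1645 in rapamycin and 1410 to 1656 in SL0101, against 2934 to 3324 in DMSO. Of 8 tested, 4 fell with rapamycin, and 5 fell and 1 rose with SL0101, while C1qa, Marco, Spic, Mrc1, Siglec1 and Timd4 were at 0 in every Hoxb8 library. The 10 neutrophil maturation genes summed to 62801 to 96648 in rapamycin and 54129 to 81502 in SL0101, against 115255 to 159819 in DMSO, with 4 and 7 of 10 lower. The 9 GMP granule and progenitor genes summed to 60075 to 60340 in rapamycin and 25912 to 33826 in SL0101, against 12252 to 13368 in DMSO, with 7 and 5 of 9 higher. The 7 monocyte genes summed to 2934 to 2979 in rapamycin and 2217 to 2684 in SL0101, against 4701 to 5526 in DMSO, with 6 and 5 of 7 lower. Malat1 and Neat1 summed to 2635 to 2737 in rapamycin, with 1 of 2 (Malat1) higher, and to 1307 to 1424 in SL0101, with 2 of 2 lower, against 2087 to 2105 in DMSO. The part of these differences in the lysosomal results was not tested.

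DMSO-treated Hoxb8 cells were also set against the 6 fl/fl GMP libraries. Here 38 of the 44 genes were higher in Hoxb8 cells (22.6% of all 13740 genes tested) and 1, Gaa, was lower (29.5%), with 40 at an unadjusted p under 0.05 (57% of all) and a median log2 fold change of 1.24 against -0.15 over all genes. The cells differ in source, culture, differentiation and preparation at once, which cannot be told apart. All 21 genes that fell with either inhibitor were among the 38. This comparison uses the same DMSO libraries, so the 2 counts are not independent.

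Lipa had 811 and 701 in DMSO-treated Hoxb8 cells, against 112 to 159 (median 134) in fl/fl GMPs (2.49 ± 0.17, adjusted p = 3.32e-11). Asah1 had 1128 and 1052 in DMSO-treated Hoxb8 cells, against 142 to 239.8 (median 213) in fl/fl GMPs (2.42 ± 0.18, adjusted p = 2.32e-10). Neu1 had 515 and 486, against 79.5 to 131 (median 95.5) in fl/fl GMPs (2.31 ± 0.18, adjusted p = 3.92e-10). These lipid and sugar hydrolases were several times higher in the cultured cells. Man2b1 had 1711 and 1583, against 368 to 591 (median 509) in fl/fl GMPs (1.73 ± 0.20, adjusted p = 6.43e-07).

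Pump genes followed. Atp6v1b2 had 2196 and 1915 in DMSO-treated Hoxb8 cells, against 297 to 468 (median 406) in fl/fl GMPs (2.38 ± 0.14, adjusted p = 3.53e-12). Atp6v1e1 had 1519 and 1578, against 299 to 346 (median 325) in fl/fl GMPs (2.26 ± 0.11, adjusted p = 2.26e-13). Atp6v1a had 849 and 992, against 142 to 307 (median 206) in fl/fl GMPs (2.15 ± 0.17, adjusted p = 6.15e-10). All 8 V1 subunits were higher, at a median of 1.33. Atp6v0d1 had 713 and 651, against 180.2 to 271 (median 227) in fl/fl GMPs (1.57 ± 0.14, adjusted p = 2.59e-09). Atp6v0d2, the gene with the largest change in the knockouts, had 1.58 and 1.66 in DMSO-treated Hoxb8 cells, which is 2 fragments in each, and 0 in all fl/fl GMPs.

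Membrane genes were higher too. Lamp1 had 1994 and 1701 in DMSO-treated Hoxb8 cells, against 163 to 735 (median 442) in fl/fl GMPs (2.22 ± 0.31, adjusted p = 2.94e-05). Cln3 had 205 and 194, against 29.5 to 65.4 (median 40.3) in fl/fl GMPs (2.24 ± 0.25, adjusted p = 1.13e-07). Lamp2 had 2024 and 2038, against 422 to 666 (median 646) in fl/fl GMPs (1.78 ± 0.13, adjusted p = 2.08e-10). All 4 membrane glycoproteins and all 5 transport genes were higher. Mcoln1 had 145 and 118, against 40.4 to 52.0 (median 43.0) in fl/fl GMPs (1.53 ± 0.24, adjusted p = 8.87e-06). Gaa was the exception, with 164 and 140.3, against 228 to 397 (median 317) in fl/fl GMPs (-1.06 ± 0.18, adjusted p = 2.82e-05).

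Other lysosomal genes were read from fixed lists. Over all genes tested, 1.53% rose and 2.42% fell in Raptor KO, and 5.26% rose and 7.12% fell in Tsc2 KO. With rapamycin 5.40% of all genes rose and 6.35% fell, and with SL0101 5.09% rose and 5.79% fell. The all-gene medians were 0.03, -0.02, -0.01 and -0.02 in that order. Of 26 other enzymes and cofactors, cathepsins included, 4 rose and 1 fell in Raptor KO (median 0.31), with Psap, the precursor of the saposins, at 1.22 and Ctss, cathepsin S, at 1.74, while Acp5, the tartrate-resistant phosphatase, fell by 2.18 on the log2 scale. In Tsc2 KO 7 rose and 1 fell (median 0.34), and the cathepsins Ctsb (1.40), Ctsd (1.09), Ctsl (1.98) and Ctss (1.85) were among the risers. The largest log2 fold change of this list there was 3.11, in Lgmn (legumain). Lgmn had 26.5, 37.8 and 48.1 in Tsc2 KO libraries, against 1.73, 4.23 and 4.70 in Tsc2 fl/fl libraries. In rapamycin 10 of 25 fell and 1 rose (median -0.41), and in SL0101 12 fell and 1 rose (median -0.59). Psap was at -2.05 with rapamycin and -1.94 with SL0101, and Ctss at -3.81 and -3.25. Ctsc, which activates neutrophil serine proteases, was at -1.48 and -1.09.

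Of 11 tested V-ATPase isoforms and assembly factors, 0 passed in Raptor KO, 2 rose in Tsc2 KO (Wdr7 at 1.06 and Tmem199 at 0.79), 0 passed with rapamycin and 1, Wdr7, fell with SL0101. Of the other lysosomal membrane genes 1 of 23 fell in Raptor KO (Tpcn1, a lysosomal ion channel, at -1.13), and 3 rose and 2 fell in Tsc2 KO. In rapamycin 3 of 21 fell (Lmbrd1, Cd68 and Ostm1), and in SL0101 1 fell (Cd68). Of the genes that deliver enzymes to lysosomes, the sorting receptor Sort1 was the only 1 of 19 to fall in Raptor KO and the mannose 6-phosphate receptor Igf2r the only 1 to rise in Tsc2 KO. With rapamycin 1 of 18 rose (Gnptg), and with SL0101 1 fell (Sort1). Single calls in these lists are near the shares over all genes tested and show nothing particular to the lists.

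Of 17 genes of the mTORC1 platform on the lysosome and the TFEB family, 0 passed in Raptor KO. In Tsc2 KO 3 rose and 0 fell: Tfe3, itself a transcription factor of lysosomal genes, at 1.33, Flcn, the folliculin that acts on RagC and RagD, at 0.83, and Lamtor3, a Ragulator subunit, at 0.81. With rapamycin 3 of 15 fell (Fnip2 at -2.16, Mitf at -1.56 and Flcn at -0.75) and 1 rose (Tfec at 1.11). With SL0101 2 of 15 fell (Fnip2 at -1.37 and Mitf at -1.40). Fnip2 is the partner of folliculin, and Mitf and Tfec are relatives of TFEB.

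In the knockout and inhibitor comparisons with their controls, 17 of the 44 genes passed in none: Arsa, Atp6ap2, Atp6v0d1, Atp6v0e, Atp6v1f, Cd63, Ctns, Fuca1, Gaa, Galns, Gla, Gusb, Manba, Mcoln1, Naglu, Neu1 and Smpd1. Their log2 fold changes ran from -0.82 (Naglu in Tsc2 KO) to 0.91 (Arsa in Raptor KO). Some counts may include reads of a neighbour, since the kit does not mark strand. By GENCODE M21, exons on the opposite strand overlap Arsa (690 bases, C230037L18Rik), Cln3 (442, Apobr), Npc1 (192 with Rmc1 and 90 with Gm15956), Lamp1 (177, Grtp1), Atp6v0b (70, Gm12841), Idua (141 with Slc26a1 and 56 with Dgkq), Atp6v1h (127, Rgs20) and Ppt1 (32, Cap1). Slc26a1 was at 0 to 5.0 in Raptor KO and 7.9 to 24.3 in Raptor fl/fl, the opposite direction from Idua. Tmppe, which shares 165 exon bases with Glb1, was at 68.0 to 101 in Raptor KO and 47.9 to 49.8 in Raptor fl/fl.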

How the data were processed

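Gene expression was measured by RNA-seq in 18 mouse libraries. The deposited values are a signal made by the authors: the fragment count of each gene scaled by a size factor for its library. BWA, TopHat2 2.0.10, Cufflinks 2.2.1 and Cuffnorm are named in the submitters' processing notes (build not given in the sources used here). Between 98.85% and 99.04% of non-zero values per library were whole multiples of 1 step (tolerance 0.01), which gave the fragments per library.

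Values were tested as log2(value + 1) with limma 3.58.1 in R 4.3.3 (moderated variances, expression trend, robust), since they are not raw counts. A fold change on this scale understates the change of low genes. The 12 GMP libraries (4 groups), the 6 Hoxb8 libraries (3 groups) and all 18 (7 groups) were fitted separately, with no replicate term. Genes at 1 or more in at least 3 libraries (2 for Hoxb8) were tested, 13237, 11804 and 13740 in the 3 fits, and p-values were adjusted by Benjamini-Hochberg within each of 7 comparisons. The fit was tested on simulated data, with a spread that was set and not taken from these libraries. Of planted 1.5-fold changes it recovered 2.5% in the Raptor comparison and 0.5% in the rapamycin comparison. Of 2-fold changes it recovered 58.5% and 44.5%, and of 4-fold changes 100% and 97.5%. A gene that did not pass may therefore still have changed by 2-fold or less. No pair of replicates agreed within sampling noise. Alternatives covered pseudocount, filter, scaling, variance prior, voom weights, the libraries in the fit, a replicate block and leaving out each library.

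Values in every library are given for genes that passed (the 12 with the largest log2 fold changes where more passed), and from other lists for up to 4 that passed. Glb1, Asah1, Gaa, Arsa and Lamp2 in Raptor KO, Atp6v0d1 and Lamp1 in Tsc2 KO, and the neighbouring genes were added after their values were seen. The genes and lists were chosen with earlier results of these data known. Promoter windows come from RefSeq (GRCm38.p6), and exon overlaps from GENCODE M21.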

Additional observations from a re-analysis of the deposited data

Results flagged for a closer look

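The effects of the 2 knockouts differed, by the limma test of the Raptor effect minus the Tsc2 effect over 12 GMP libraries, in 6 lysosomal genes. The difference was 1.76 (log2) for Idua, 1.69 for Glb1 and 1.00 for Asah1, whose Raptor KO libraries lay above their Raptor fl/fl controls while the Tsc2 KO means lay below theirs. It was -0.94 for Atp6v1g1, -0.82 for Atp6v1e1 and -0.67 for Atp6v0e, pump subunits whose Tsc2 KO libraries lay above their Tsc2 fl/fl controls. In Raptor KO, Atp6v0e lay below its controls in every library and Atp6v1g1 and Atp6v1e1 overlapped theirs. The counts of 3 positive and 3 negative differences are near the shares over all genes tested (5.99% and 6.44%), so they show nothing particular to lysosomal genes. Marker genes of other cells also differed in both lines, and their part in these differences was not tested.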

How the results depend on the processing

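Over all 7 comparisons 803 of 1001 alternative values of the named genes kept their direction and side of the threshold, 198 kept the direction but lost the call, and 0 reversed. In Raptor KO the 2 calls became 4 with quantile normalization, 1 without trend or robust estimation and 1 with robust estimation alone (188 genes in all against 522), 9 with the Raptor libraries alone (1249 in all) and 1 to 2 when each library was left out. In Tsc2 KO the 11 calls became 5 without trend or robust estimation (929 of all genes against 1638) and 4 with robust estimation alone (827). They became 6 with the Tsc2 libraries alone (471), 7 without the male libraries (1275) and 4 to 15 when each library was left out. The 6 differences between knockouts became 2 without trend or robust estimation (714 genes in all against 1646), 0 with robust estimation alone (599 in all, 13 of the 44 at an unadjusted p under 0.05), and 4 to 12 when each library was left out. The 16 rapamycin calls became 0 without trend or robust estimation (188 in all against 1386) and 0 with robust estimation alone (171 in all, 15 of the 44 at an unadjusted p under 0.05), and 5 to 16 when each library was left out. The 10 SL0101 calls became 0 without trend or robust estimation (97 in all against 1284) and 0 with robust estimation alone (87 in all, 10 of the 44 at an unadjusted p under 0.05), and 1 to 6 when each library was left out. The 2 calls between rapamycin and SL0101 became 4 with a filter at 5, 5 with a common total, 5 with voom weights, 1 with trend alone, 0 without trend or robust estimation (14 in all against 1047, 8 of the 44 at an unadjusted p under 0.05), 0 with robust estimation alone (0 in all, 6 of the 44 at an unadjusted p under 0.05), 0 with these libraries alone, and 0 to 3 when each library was left out. For the Hoxb8 cells against GMPs, 39 calls became 35 to 40. Trend alone and robust estimation alone were chosen after seeing the data; the cause of these changes was not tested, beyond the fewer libraries when some were left out.

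The replicate numbers were not taken as pairs in the main fits, and whether they mark pairs was not settled. Same-numbered KO and fl/fl libraries, less their group means, correlated at 0.043, 0.053 and 0.016 in the Raptor line. In the Tsc2 line they correlated at 0.281, 0.351 and -0.051, and rapamycin and DMSO at 0.077. In the Raptor line each library correlated best with its own number. In the Tsc2 line replicates 1 and 2 did, and replicate 3 did not. Replicate 2 was male, by Ddx3y, in both Tsc2 groups. With a replicate block 8 genes passed in Raptor KO (1142 of all genes against 522 without it) and 17 in Tsc2 KO (2499 against 1638). Between the knockouts 14 passed (2482 against 1646). In Hoxb8 cells 20 passed with rapamycin (1857 against 1386), 16 with SL0101 (1828 against 1284) and 13 between rapamycin and SL0101 (1691 against 1047). Calls thus rose over all genes as well. No paired analysis was possible for Hoxb8 cells against GMPs because these come from different sources. A planned count test with TMM scaling was not run, because some values were not whole multiples of a library's step. Scaling to a common total or voom moved the median of all genes between DMSO-treated Hoxb8 cells and fl/fl GMPs to -0.25 and -0.28.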
